A study of Drosophila melanogaster with 6 samples.

Results

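The transcripts of period (per) and timeless (tim), the 2 core repressors of the Drosophila circadian clock, were followed in female fly heads. Members were all probe sets to which the platform annotation gives exactly 1 gene symbol, that symbol being per or tim. The 2 genes were among 11982 genes named by a single symbol. This rule found 3 of 18769 tested probe sets: 1 for per (1638452_at) and 2 for tim (1634188_a_at and 1631468_a_at). No probe set with several symbols included either gene. The 6 Affymetrix arrays were of Tim-Fbl heads at ZT15 (1 array), Tim-Fbl heads at ZT3 (1 array), Control heads at ZT15 (2 arrays) and Control heads at ZT3 (2 arrays). ZT is zeitgeber time, the hour after lights-on, so ZT3 is in the morning and ZT15 early in the night. All flies were reared at the same temperature, and strain and time are the only differences the labels give. Tim-Fbl stands in the RNAi field of the labels, where the other strain is called control; ages, the driver and the genetic background are not stated in those labels. The name Tim-Fbl contains the symbols of tim and of fbl, both of which were measured. Values are RMA signals on a log2 scale, so a difference of 1 is a 2-fold difference.

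In the fly clock, the transcription factors CLOCK (gene Clk) and CYCLE (cyc) switch on per and tim. The PER and TIM proteins bind each other, enter the nucleus late at night and repress CLOCK-CYCLE, and with it their own genes. Both transcripts are known to be low in the morning and high in the early night, and TIM protein is degraded in light after contact with the photoreceptor cryptochrome. In heads both genes are transcribed in photoreceptors, glia and a small set of clock neurons. In whole heads, fewer cells of a type and less RNA per cell cannot be told apart.

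The strain label was checked on fbl (fumble, pantothenate kinase), whose signal in Tim-Fbl was 7.49 at ZT15 and 7.47 at ZT3, against 9.11 to 9.28 on the 4 Control arrays. The limma strain difference was -1.75 ± 0.081 (SE; adjusted p = 5.57e-05), and the strains did not overlap. Array medians ran between 5.46 and 5.51. The median of the poly-A spike-ins reached 6.76 for Tim-Fbl at ZT15 and ran from 5.17 to 5.89 for the other 5 arrays. Median 18S rRNA signals of Tim-Fbl were 11.8 (ZT15) and 11.5 (ZT3); those of Control were 11.4 (ZT15 replicate 2) and 12.3 to 12.7 (the rest). The 3' minus 5' signal of the control transcripts, a sign of RNA quality, was highest on the Tim-Fbl ZT3 array for all 3: 5.10 for actin (4.56 to 4.73 on the other 5 arrays), 2.40 for gapdh (2.14 to 2.30) and 4.62 for eif4a (4.18 to 4.42). Measured photoreceptor, neuron, glia and fat body markers (7, 6, 7 and 8 genes) all had a mean log2 of at least 5 on their brightest probe set. Of the ovary and eggshell markers 6 of 8, and of the gut markers 1 of 5, lay under a mean log2 of 5. The part of these array differences in the results was not tested.

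The per transcript encodes the PAS-domain repressor PER. Its signal was 8.39 on the Tim-Fbl ZT15 array and 6.32 on the Tim-Fbl ZT3 array. In Control heads it was 8.68 and 8.63 on the ZT15 arrays, against 6.04 and 5.90 on the ZT3 arrays. Every ZT15 array thus lay well above every ZT3 array, and the lowest Control ZT15 value exceeded the highest Control ZT3 value by 2.59. Control replicates were 0.05 apart at ZT15 and 0.14 apart at ZT3.

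The TIM protein is the light-sensitive partner of PER. On the brighter tim probe set, 1634188_a_at, the signal was 12.40 on the Tim-Fbl ZT15 array and 9.78 on the Tim-Fbl ZT3 array. The Control arrays had 12.30 and 12.40 at ZT15, against 9.88 and 9.48 at ZT3. Both Tim-Fbl values fell between the Control replicates of their own time. The replicates of Control ZT3 were 0.40 apart, the widest spread of the Control pairs on this probe set, and those of ZT15 were 0.10 apart.

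The dimmer tim probe set, 1631468_a_at, had 6.83 on the Tim-Fbl ZT15 array and 5.12 on the Tim-Fbl ZT3 array. The Control arrays had 6.67 and 6.58 at ZT15, against 4.85 and 4.37 at ZT3. Both Control ZT15 arrays lay above both Control ZT3 arrays, as for 26.5% of all probe sets. The Tim-Fbl ZT15 value was above the Tim-Fbl ZT3 value, with 1 array each. Each Tim-Fbl array lay above both Control arrays of its time. The Control ZT3 values lay between the lower quartiles of the arrays (3.99 to 4.16) and their medians (5.46 to 5.51), with replicate 2 (4.37) the closer to the quartiles. Low signals can be compressed, so the difference of this probe set between times may be understated, which was not tested. On all 3 probe sets replicate 1 of Control ZT3 was above replicate 2, by 0.14 for per and by 0.40 and 0.48 for tim. The suffix _a_at marks probe sets that match several transcripts of 1 gene; the annotation used here does not say which tim transcripts each of them reads.

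**Figure D1:**
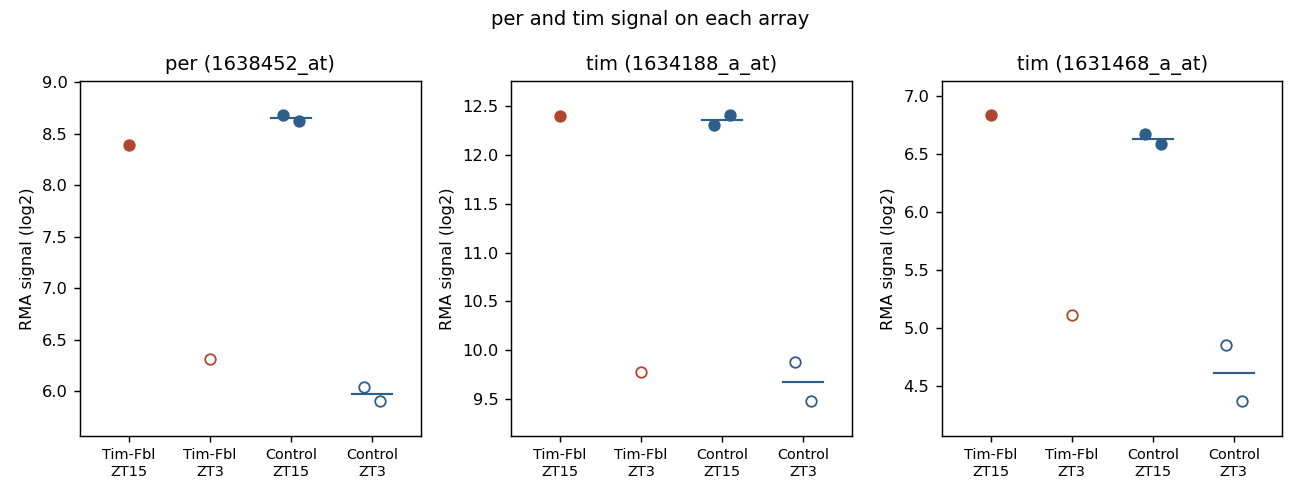
RMA signal (log2) of per and of both tim probe sets on each of the 6 arrays, by strain and zeitgeber time, with a separate vertical axis for each probe set; red is Tim-Fbl, blue is Control, filled points are ZT15, open points are ZT3, and bars are the means of 2 Control arrays. In every panel the ZT15 points lie above the ZT3 points, as for per, with 8.39 and 8.63 to 8.68 at ZT15 against 6.32 and 5.90 to 6.04 at ZT3.

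The comparison of ZT15 with ZT3 in Control heads asked how far both transcripts differed between night and morning. per was 8.65 ± 0.037 at ZT15 and 5.97 ± 0.098 at ZT3 (SD, n = 2 each), a rise of 6.42-fold. The log2 difference was 2.68 ± 0.095 (SE, 95% interval 2.46 to 2.91, limma adjusted p = 0.000376). tim on 1634188_a_at was 12.35 ± 0.072 at ZT15 and 9.68 ± 0.284 at ZT3 (SD, n = 2 each) and rose 6.39-fold, a log2 difference of 2.68 ± 0.14 (SE, 95% interval 2.34 to 3.01, adjusted p = 0.0009). On 1631468_a_at tim was 6.62 ± 0.059 and 4.61 ± 0.342 (SD, n = 2 each) and rose 4.03-fold, a log2 difference of 2.01 ± 0.16 (SE, 95% interval 1.63 to 2.39, adjusted p = 0.00477).

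All 3 probe sets passed with a rise, where 0.314% of the 18769 probe sets did. Both Control ZT15 arrays lay above both ZT3 arrays for these 3, and for 26.5% of all probe sets. By size of the rise the probe sets of per and tim ranked 7 (per), 8 (tim 1634188_a_at) and 12 (tim 1631468_a_at) of all, and by limma p-value they ranked 1, 9 and 22. The number of probe sets called in either direction was 132. It was 27 without Control ZT3 replicate 2, 72 without Control ZT3 replicate 1 and 340 without Control ZT15 replicate 1. Each of the 3 probe sets of per and tim passed with each of these arrays left out.

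The rises of per and of the brighter tim probe set differed by 0.0054 on the log2 scale. Between the tim probe sets the rise was 0.66 larger on the brighter one, and the within-array difference was larger on both ZT15 arrays than on both ZT3 arrays. An exact two-sided permutation test over the 4 Control arrays gave p = 0.333, the smallest p that 2 against 2 arrays allow, so this difference could not pass. On the Tim-Fbl arrays the corresponding difference between the tim probe sets was 0.90.

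In Tim-Fbl heads, with 1 array a time and no test, per was 2.07 higher at ZT15 than at ZT3 on the log2 scale, or 4.21-fold. tim was 2.61 higher on 1634188_a_at (6.13-fold) and 1.71 higher on 1631468_a_at (3.28-fold). By size of the rise within Tim-Fbl, per ranked 12, and the tim probe sets ranked 4 and 19 of 18769. A rise of at least 2-fold was seen in all 3, and in 0.336% of all probe sets. The per transcript thus stood below the brighter tim probe set by 0.54 in its Tim-Fbl rise, and level with it in the Control rise. Against the dimmer tim probe set, the per rise was larger by 0.36 in Tim-Fbl and by 0.67 in Control.

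**Figure D2:**
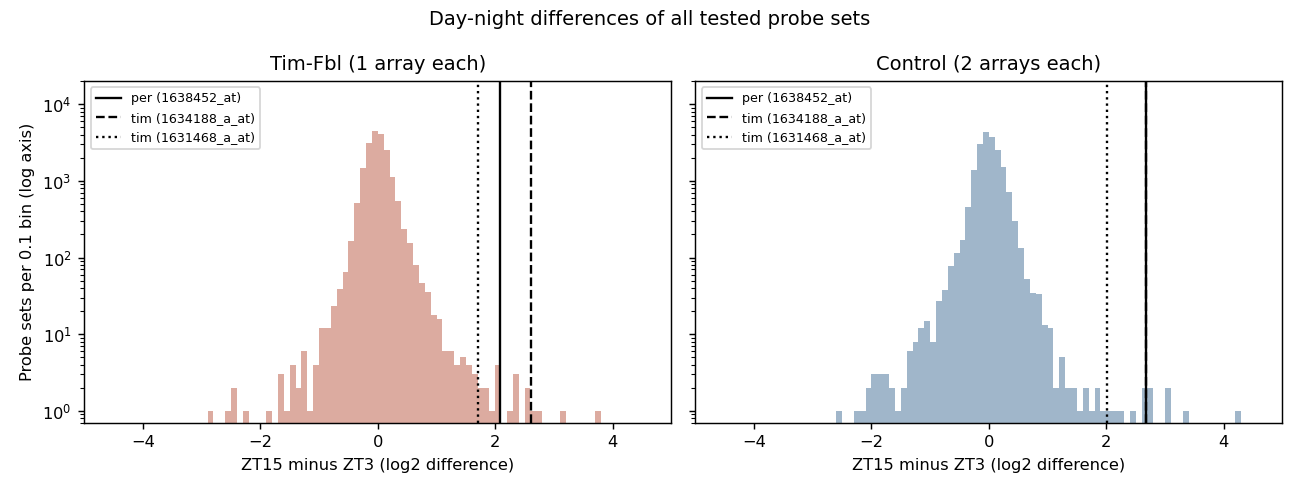
Log2 difference between ZT15 and ZT3 of all 18769 probe sets in bins of 0.1, in Tim-Fbl (left) and Control (right), with the number of probe sets on a log axis; vertical lines mark per and both tim probe sets. The lines stand at 2.07, 2.61 and 1.71 in Tim-Fbl and at 2.68, 2.68 and 2.01 in Control, in the sparse right tail of both distributions.

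The comparison of strains asked whether per and tim differed between Tim-Fbl and Control heads over both times. None of the 3 probe sets passed, where 8.79% of all probe sets did (5.44% higher and 3.35% lower in Tim-Fbl). The split was 1021 to 629 probe sets, and 1239 to 477 with array medians subtracted. For per the log2 difference was 0.04 ± 0.14 (SE), and its 95% interval ran from 0.826-fold to 1.28-fold (limma adjusted p = 0.866). For tim it was 0.07 ± 0.12 on 1634188_a_at, with an interval from 0.872-fold to 1.27-fold (adjusted p = 0.702). On 1631468_a_at it was 0.36 ± 0.14, with an interval from 1.02-fold to 1.61-fold (adjusted p = 0.15). That value was 0.21 without the Tim-Fbl ZT3 array and 0.23 without Control ZT3 replicate 2. The intervals leave room for differences of these sizes, and a p that misses the threshold does not show equal levels.

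The small average for per covered unlike values at the 2 times. At ZT15 the Tim-Fbl array was below both Control arrays, 0.26 under their mean, and at ZT3 it was above both, 0.34 over their mean. The ZT3 array is the one with the highest 3' minus 5' signals, whose part in this value and in the interaction was not tested. With the Tim-Fbl ZT3 or ZT15 array left out, the strain difference of per is by construction the value at the remaining time, -0.26 or 0.34. An array above both Controls at ZT3 and below both at ZT15 was found for 7.60% of all probe sets. For tim on 1634188_a_at the Tim-Fbl arrays differed from the Control means by 0.04 at ZT15 and 0.10 at ZT3, less than the gap between the Control replicates of that time. On 1631468_a_at they were 0.21 and 0.51 above the Control means, a position above both Controls at both times that 22.6% of all probe sets shared. At ZT3 the 0.51 was 0.75 against Control replicate 2 alone and 0.26 against replicate 1 alone, so its size rested largely on which Control array it was set against.

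Ordered by level, per was highest in Control ZT15, then Tim-Fbl ZT15, Tim-Fbl ZT3 and Control ZT3. Both tim probe sets were ordered Tim-Fbl ZT15, Control ZT15, Tim-Fbl ZT3 and Control ZT3. On 1634188_a_at the neighbours of one time did not differ beyond the Control spread, and in all 3 orders the widest step was the one between ZT15 and ZT3.

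The strain-by-time interaction asked whether the rise between ZT3 and ZT15 differed between strains. It was below 0, a smaller rise in Tim-Fbl, on all 3 probe sets, and below 0 for 53.6% of all probe sets. None passed, where 0.0373% of all probe sets (7) did. For per it was -0.61 ± 0.16 (SE, 95% interval -0.999 to -0.218), with a limma adjusted p = 0.842 and an unadjusted p = 0.00805. An unadjusted p under 0.05 with a smaller rise in Tim-Fbl was found for 2.12% of all probe sets, and per ranked 167 of 18769 by interaction p-value. With each Control array left out in turn the per value stayed between -0.68 and -0.54. For tim the interaction was -0.06 ± 0.25 on 1634188_a_at (interval -0.65 to 0.52, adjusted p = 0.974) and -0.30 ± 0.27 on 1631468_a_at (interval -0.96 to 0.36, adjusted p = 0.865). The sign on 1634188_a_at turned to 0.02 after quantile normalization and to 0.14 without Control ZT3 replicate 2. The value on 1631468_a_at was -0.54 without Control ZT3 replicate 1 (unadjusted p = 0.0177, adjusted p = 0.421), -0.058 without replicate 2 and -0.53 after quantile normalization. In simulated arrays with 200 changed probe sets the interaction test found 22% of 2-fold and 92% of 4-fold changes; the interaction of per, at 1.52-fold, was smaller than both sizes. The test takes the spread of Tim-Fbl to be that of Control, since each of its groups is 1 array.

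**Figure D3:**
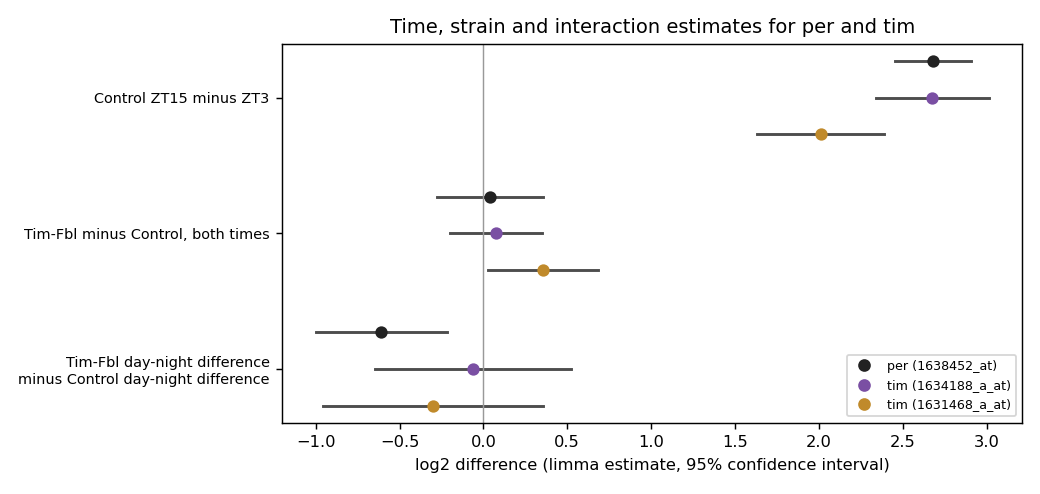
Limma estimates (points) with 95% confidence intervals (lines) of the log2 difference for per and both tim probe sets, for ZT15 minus ZT3 in Control, for Tim-Fbl minus Control over both times, and for the interaction. The time estimates (2.01 to 2.68) lie far from 0, the strain estimates are 0.04 to 0.36, and the interaction of per (-0.61) has an interval from -0.999 to -0.218 that does not reach 0 before adjustment.

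Markers of the cell types of the head were set beside these values, with the brightest probe set for each gene. The median log2 difference between ZT15 and ZT3 in Control heads was -0.01 for all probe sets. It was 0.06 for those with a mean log2 of at least 5. Neuron markers had a median of 0.34, with 6 of 6 above 0 and none passing. Their summed signal (log2) was 12.69 and 12.63 on the Tim-Fbl ZT15 and ZT3 arrays, against 12.57 to 12.61 at Control ZT15 and 12.26 to 12.35 at Control ZT3. Photoreceptor markers had a median difference between times of 0.17, and a summed signal of 15.73 and 15.81 on the Tim-Fbl ZT15 and ZT3 arrays, against 15.86 to 15.91 at Control ZT15 and 15.70 to 15.79 at Control ZT3. The median difference between times was 0.06 for glia markers and -0.06 for fat body markers. No marker of any of these lists passed the time test, where 0.703% of all probe sets did. In the strain comparison 5.44% of all probe sets were higher and 3.35% lower in Tim-Fbl. There 2 of 7 glia markers rose, alrm (0.34) and Gat (0.54), while Gs2 (-0.27) and nrv2 (-0.16) lay below 0 without passing. The summed glia signal was 13.84 and 13.82 on the Tim-Fbl ZT15 and ZT3 arrays, within the Control range of 13.78 to 13.97. Of the ovary and eggshell markers 2 of 8 fell, Cp15 and bcd, both dim with a mean log2 of 4.40 and 4.89. Of the gut markers 1 of 5 fell. None of the photoreceptor, neuron or fat body markers passed. In the interaction no photoreceptor marker (0 of 7) and no neuron marker (0 of 6) lay above 0, where 53.6% of all probe sets lay below 0. Each of these lists had a median of -0.26, the direction seen for per (-0.61). The median was -0.02 for all probe sets and -0.06 for those with a mean log2 of at least 5. Glia markers had a median of -0.07 (3 of 7 above 0) and gut markers of -0.03 (2 of 5). Medians lay above 0 for fat body markers (0.03, 5 of 8 above 0) and for ovary and eggshell markers (0.05, 7 of 8). No marker passed the interaction test. The other probe sets of the neuron markers, each with a mean log2 under 5, lay above 0. They gave 0.47 for cac and 0.04, 0.14 and 0.21 for brp. The part of these markers in the per and tim values was not tested.

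The other clock genes were taken as 4 lists by their role towards PER and TIM, with the brightest probe set for each gene. In the transcription loop 10 of 11 genes were analysed, and between times in Control heads 3 rose, 1 fell and 6 did not pass. Of all probe sets 0.703% passed in either direction. The median of the list was 0.16, against -0.01 for all probe sets and 0.06 for those with a mean log2 of at least 5. vri, a repressor of Clk, rose by 3.03 ± 0.19 (SE), Usp8, a deubiquitinase that acts on CLOCK, by 2.23 ± 0.11, and Pdp1, an activator of Clk, by 1.00 ± 0.091. Clk, the activator of per and tim, fell by 1.37 ± 0.11 (adjusted p = 0.00477), opposite to per and tim. Its partner gene cyc differed by 0.12 ± 0.089 and the repressor gene cwo by 0.65 ± 0.18 without passing (adjusted p = 0.52 and 0.186). The dimmer cwo probe set gave 0.88 (adjusted p = 0.234). Without Control ZT3 replicate 2 the value for Pdp1 was 0.95 and did not pass.

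Against Control heads of both times, Tim-Fbl heads had higher nej and kay, 2 of the 10 genes of this list, where 5.44% of all probe sets were called higher, and the other 8 genes did not pass. nej, a coactivator and acetyltransferase that acts on CLOCK-CYCLE, had 8.16 and 8.10 on the Tim-Fbl ZT15 and ZT3 arrays, against 7.60 and 7.72 at Control ZT15 and 7.44 and 7.57 at Control ZT3. It rose by 0.55 ± 0.082 (SE, adjusted p = 0.0104), and its dimmer probe set, at 0.27, missed the threshold (adjusted p = 0.219). kay, the fly Fos gene, rose by 0.52 ± 0.079 (adjusted p = 0.0111), while its dim second probe set differed by -0.14. With either Tim-Fbl array left out neither gene passed, at 0.59 and 0.50 for nej and 0.52 and 0.52 for kay without ZT15 and without ZT3. The mean over both probe sets of kay gave 0.19 (adjusted p = 0.128).

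In the interaction 9 of the 10 genes of the transcription loop lay below 0 on their brightest probe set. Of all probe sets 53.6% lay below 0. The list had a median of -0.15, against -0.02 for all probe sets and -0.06 for those with a mean log2 of at least 5. None of the 10 passed. The dimmer probe sets were mixed, with 0.59 for nej and 0.16 for kay against -0.73 for cwo and -0.04 for CrebB. vri, with -1.16 ± 0.33 (SE, unadjusted p = 0.00994), and Usp8, with -0.66 ± 0.18 (unadjusted p = 0.00966), both had a limma adjusted p = 0.842, as per did. The vri signal was 10.81 on the Tim-Fbl ZT15 array and 8.94 on the Tim-Fbl ZT3 array, against 10.86 and 10.97 at Control ZT15 and 8.19 and 7.58 at Control ZT3. Usp8 was 9.88 on the Tim-Fbl ZT15 array and 8.32 on the Tim-Fbl ZT3 array, against 10.16 and 9.94 at Control ZT15 and 7.86 and 7.79 at Control ZT3. As for per, both genes were above both Control arrays in Tim-Fbl at ZT3 and below both at ZT15. This position was found for 7.60% of all probe sets. Both genes were named for the largest interaction statistics of the list, so their position partly follows from that choice. The part of the high 3' minus 5' signals of the Tim-Fbl ZT3 array in their values was not tested. These values share the same 6 arrays and are not independent of those of per.

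Among the kinases and phosphatases of PER and TIM, 6 of 12 genes were analysed. None passed on its brightest probe set in any of the comparisons. The shares of all probe sets that passed were 0.703% between times, 8.79% between strains and 0.0373% in the interaction. dco, the doubletime kinase that phosphorylates PER, differed by 0.23 ± 0.10 between times (adjusted p = 0.31) and by 0.24 ± 0.093 between strains (adjusted p = 0.14). tws and wdb, regulatory subunits of protein phosphatase 2A, differed by 0.26 and 0.22 between strains (adjusted p = 0.0824 and 0.0882). A second, dim wdb probe set with a mean log2 of 3.78 was higher in Tim-Fbl by 0.38 (adjusted p = 0.0492). The list's median was 0.10 between times and 0.20 between strains. For all probe sets these medians were -0.01 and -0.03. For probe sets with a mean log2 of at least 5 they were 0.06 and 0.07. sgg, CkIIalpha, CkIIbeta, nmo, mts and Pp2A-29B were not analysed here.

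Of the 11 genes of light input, degradation and nuclear import, cry fell between times in Control heads and 10 did not pass. The share of all probe sets that passed between times, in either direction, was 0.703%. cry encodes cryptochrome, the blue-light receptor through which light reaches TIM. It was 8.91 and 9.78 on the Tim-Fbl ZT15 and ZT3 arrays, against 9.04 and 8.71 at Control ZT15 and 9.96 and 9.94 at Control ZT3. It fell by 1.07 ± 0.12 (SE, adjusted p = 0.0231) and its call was lost when Control ZT3 replicate 1 or 2 was left out (-1.07 and -1.08). jet, the F-box gene of light-driven TIM degradation, differed by 0.01 ± 0.12, and slmb, the F-box gene of PER degradation, by 0.15 ± 0.091. qsm (quasimodo), which takes part in light responses of the clock, was 9.27 and 9.57 on the Tim-Fbl ZT15 and ZT3 arrays, against 8.58 and 8.65 at Control ZT15 and 9.11 and 9.17 at Control ZT3. It rose in Tim-Fbl by 0.54 ± 0.083 (adjusted p = 0.0113). It was 1 of 11 genes of this list to pass between strains, a share close to the 8.79% of all probe sets. It did not pass without the Tim-Fbl ZT15 array (0.43, adjusted p = 0.093). Its difference between times, -0.52 ± 0.089, did not pass (adjusted p = 0.0704).

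Of the 10 genes that act on per and tim RNA or are related to tim, none passed between times. Of all probe sets 0.703% did. The list's median was 0.09, against -0.01 for all probe sets and 0.06 for those with a mean log2 of at least 5. tyf, which promotes translation of per, rose in Tim-Fbl by 0.40 ± 0.086 (adjusted p = 0.0332), and 9 genes did not pass. That is 1 of 10, close to the share of all probe sets called (8.79%). A second tyf probe set rose by 0.35 (adjusted p = 0.0439), and the dimmest, at 0.34, missed the threshold (adjusted p = 0.0613). The brightest tyf probe set did not pass with any 1 array left out except Control ZT3 replicate 1 (0.32 to 0.47 without the others), nor after quantile normalization (0.27). Atx2, the partner of tyf, differed by 0.20 ± 0.083 without passing (adjusted p = 0.162). timeout, the paralog of tim, had a mean log2 of 4.43, near the floor, and differed by -0.30 ± 0.089 between times (adjusted p = 0.2).

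**Figure D4:**
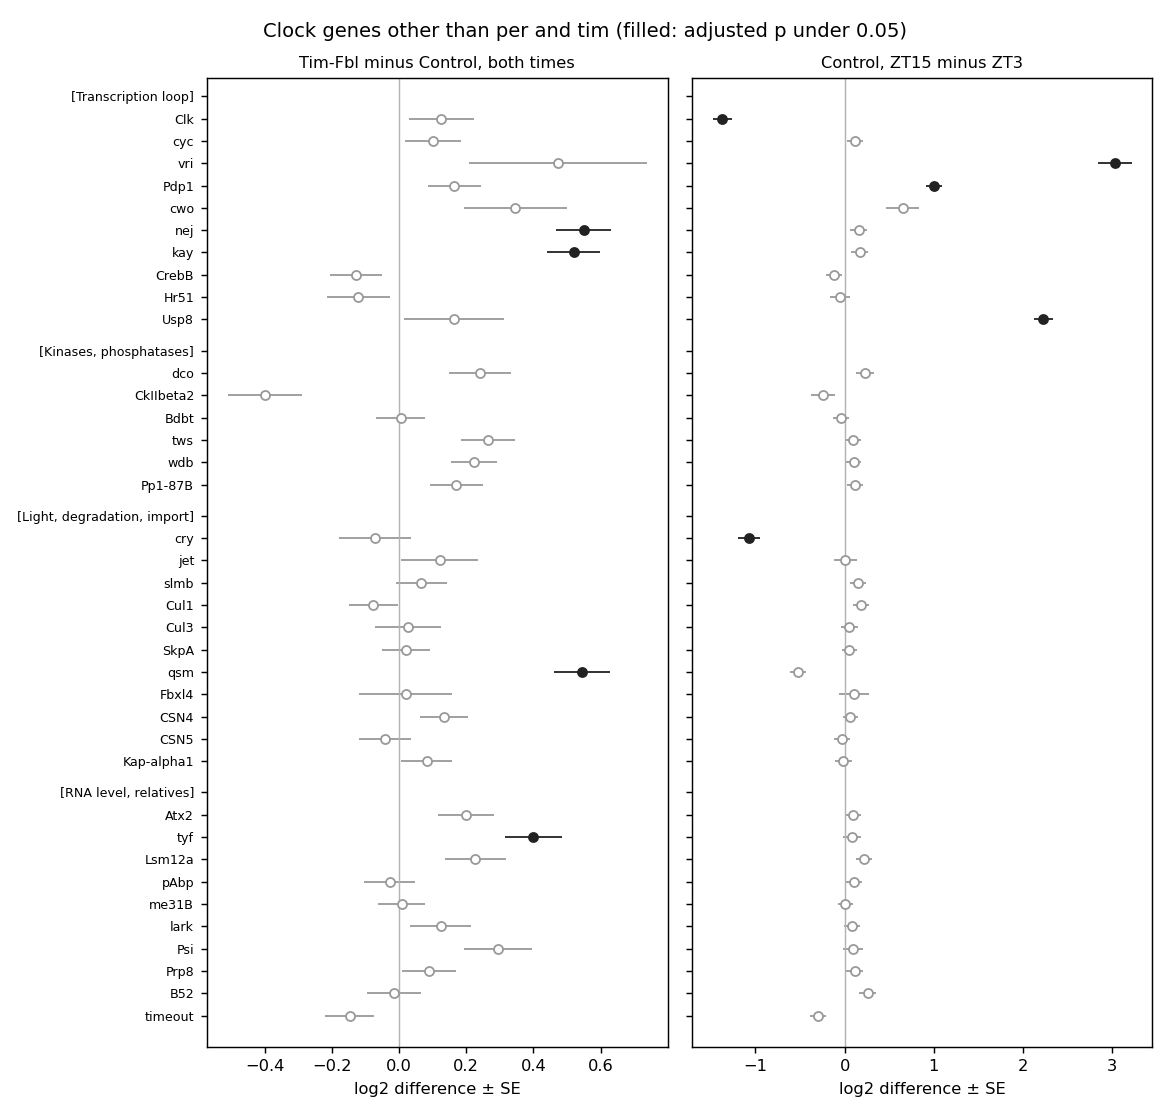
Log2 differences (points) with standard errors (lines) of the other clock genes by role, for Tim-Fbl minus Control over both times (left) and for ZT15 minus ZT3 in Control (right); filled points have an adjusted p under 0.05. Between times vri, Usp8, Pdp1, Clk and cry are filled, between strains nej, kay, qsm and tyf, and no kinase or phosphatase gene is.

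Over the 6 arrays, the per signal followed the brighter tim probe set with a Pearson r of 0.992 and the dimmer one with 0.981, and the tim probe sets followed each other with 0.985. These correlations describe 6 arrays that fall into 2 times of day, so any transcript with a large difference between times scores high. Named probe sets that averaged at least 5 on the log2 scale and spanned at least 1 over the arrays were then ranked by their Pearson r with each member. The 5 most like per were Slob, a potassium channel binding protein (r = 1.00), Usp8 (0.996), Epac, an exchange factor for the small GTPase Rap (0.994), gol, a ubiquitin ligase gene (0.990), and Myo28B1, a myosin (0.989). Usp8 and gol had rises of 2.23 and 2.11 in Control heads, while Slob rose by 1.40, Epac by 1.13 and Myo28B1 by 1.85. With the mean over the probe sets of a gene the rises were smaller, 1.29 for gol, 0.66 for Slob and 0.91 for Myo28B1, and these 3 passed.

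The 5 most like tim on 1634188_a_at were dnr1, which encodes a RING finger protein (r = 0.997), Slob (0.994), CG14221 (0.992), Epac (0.991) and Pdp1 (0.988). Slob and Epac thus stood among the 5 for per and for this tim probe set. CG14221 was 6.41 and 4.48 on the Tim-Fbl ZT15 and ZT3 arrays, against 6.17 and 6.17 at Control ZT15 and 4.42 and 4.43 at Control ZT3. On 1631468_a_at the 5 were M7BP (0.997), Pdp1 (0.995), vri (0.991), dnr1 (0.987) and gl (glass), a transcription factor of photoreceptors (0.985). dnr1 (1.00) and gl (0.77) did not pass the time test without Control ZT3 replicate 2. The mean over the probe sets of a gene gave 0.49 for Epac and 0.47 for M7BP, neither of which passed.

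**Figure D5:**
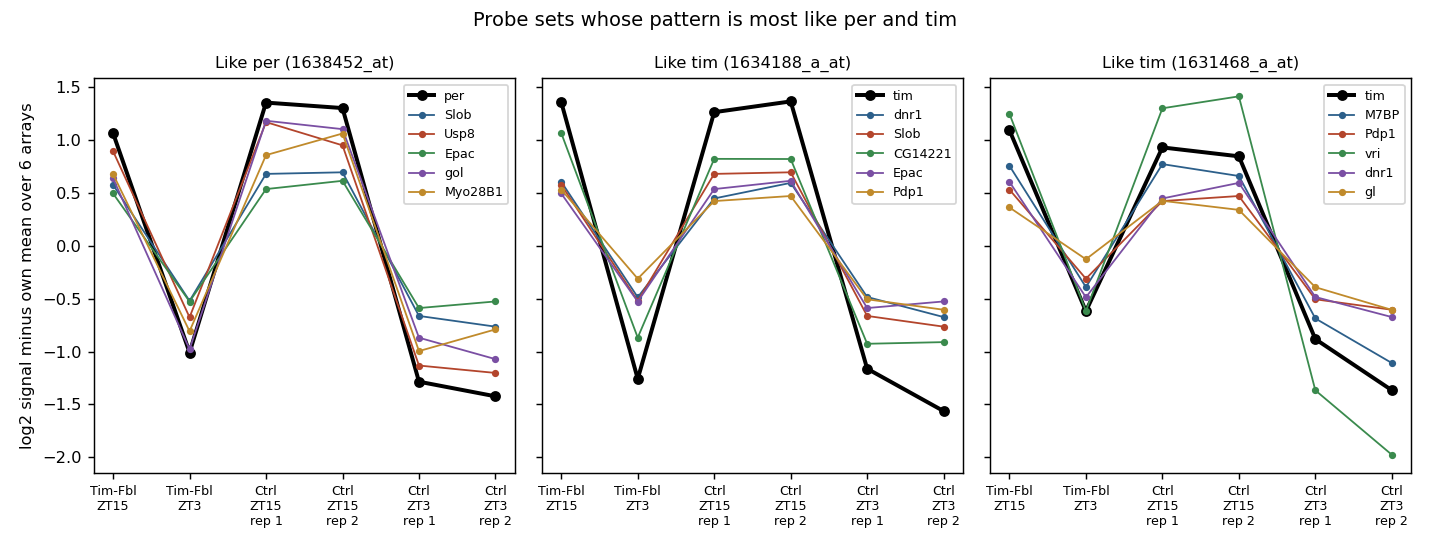
Log2 signal minus its own mean over the 6 arrays for per and both tim probe sets (black) and for the 5 probe sets with the highest Pearson r with each (colours), by array; lines only join the values of 1 probe set. All profiles are high on the ZT15 arrays and low on the ZT3 arrays, and they differ mainly in size, as with Epac (1.13 between times in Control) beside per (2.68).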

How the data were processed

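The deposited values are log2 signals per probe set, made with RMA per the submitters' processing notes. The RMA version is not stated, and the log2 scale was read from the range of the values. RMA as usually run brings the arrays to a common probe distribution, so a shift shared by all transcripts may be lost, although the deposited arrays kept lower quartiles of 3.99 to 4.16. Of 18952 rows, 183 were Affymetrix control probe sets and were not tested. No genome build is named, so no coordinates are given, and no sequences are printed.

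Each of the 18769 other probe sets was tested with limma (version 3.58.1, R version 4.3.3), and p-values were adjusted over all of them (Benjamini-Hochberg, threshold 0.05). The time effect and the interaction were fitted on 4 group means, with 2 residual degrees of freedom that stem from the Control replicates. The strain effect was fitted on strain plus time, with 3. Whether replicates were separate cultures is not stated, so p-values cover only the spread among these arrays, which may be technical, and the number of arrays limits the precision. The functions were tested on 5 simulated data sets; for the time and strain effects 92.4% and 96% of 2-fold changes were found. Genes named were per, tim, fbl, list members that passed or else those with the largest statistics, and the 5 probe sets most like each member. Members and lists were chosen with earlier results of these data known. Alternatives covered filters, normalization, variance models, the mean per gene, the replicate number as a block and left-out arrays. Figures were drawn with matplotlib 3.10.9.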

Additional observations from a re-analysis of the deposited data

How the results depend on the processing

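The rises of per and of both tim probe sets kept their direction and passed in all 14 alternatives run. Leaving out either Tim-Fbl array could not change them, since this fit takes values and spread from Control arrays alone. A model of strain plus time took both strains together (2.48 for per), and the mean per gene joined both tim probe sets (2.34). With 1 array left out the rises in Control heads ran from 2.61 to 2.75 for per and 2.48 to 2.88 for tim 1634188_a_at. For tim 1631468_a_at they ran from 1.77 to 2.25. No strain effect or interaction of the 3 probe sets passed in any alternative. The strain effect of per was -0.0378 after quantile normalization and ran from -0.26 to 0.34 with 1 array left out. Those ends come from leaving out a Tim-Fbl array and are by construction the differences at ZT15 and ZT3. With 1 array left out the strain effect of tim 1634188_a_at ran from -0.0162 to 0.16. Its interaction ran from -0.26 to 0.14, and was 0.0161 after quantile normalization. For tim 1631468_a_at the strain effect ran from 0.21 to 0.51 and the interaction from -0.54 to -0.058 with 1 array left out. The ends of that strain range are likewise the differences at ZT15 and ZT3. Quantile normalization, chosen for the next 2 values after seeing the data, gave 0.26 in place of 0.34 for per in Tim-Fbl minus Control at ZT3, and 0.55 in place of 0.66 for the difference between the tim rises; the cause was not tested. The time effect was called in 132 probe sets, in 83 with dim ones left out (fewer tested), in 214 with robust variances, and in 27 to 340 with 1 array left out. The strain effect was called in 1650, and in 395 to 1255 with 1 array left out. By limma the interaction was called in 7, in 0 with dim probe sets left out (596 at an unadjusted p under 0.05) or after quantile normalization (1079), and in 0 to 57 with 1 array left out (956 unadjusted at the count of 0, without Control ZT3 replicate 2). The labels do not say whether replicate numbers pair the Control arrays across times. The differences between replicates at ZT15 and ZT3 correlated at 0.0381 over probe sets. With the number as a replicate block the time effect was called in 334 and the interaction in 23 probe sets, and no call for per or tim changed. Without a Tim-Fbl array the interaction has no value.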

Other observations

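When likeness was measured by the mean absolute difference of the centred log2 values, which also weighs the size of the rise, 3 of the 5 probe sets most like per were shared with those by Pearson r, and 1 of 5 for each tim probe set. vri and Usp8 then came closest to per (0.229 and 0.236 log2 units) and to tim on 1634188_a_at (0.242 and 0.324). CG14221 and Usp8 came closest to tim on 1631468_a_at (0.152 and 0.169). CG2681 and mdu entered for that probe set, and mdu was also higher in Tim-Fbl over both times, by 0.48 (limma adjusted p = 0.0177).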
